A study of Homo sapiens with 4 samples.

Results

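The matrix metalloproteases (MMPs), their tissue inhibitors, the plasminogen activators with their receptor and serpins, and the related ADAM and ADAMTS proteases were compared between a parental prostate cancer line and its bone-seeking derivative. The genes were a list of 46 symbols, each represented by its brightest probe set annotated to that symbol alone, taken by the mean of the 4 arrays, and 44 of them could be measured among 18417 genes with such a probe set. SERPINB2 and ADAMTS15 were not analysed here. PC-3, called PC3-P in the study, is an established human line that was derived from prostate cancer in bone and is labelled as having poor metastatic potential. PC-3-BM, labelled as having high metastatic potential, is 1 derivative line. Its cells had been injected into the heart of athymic mice in several rounds, taken back from leg bones, expanded in culture and sorted by their green fluorescence. Cells of both lines carried firefly luciferase and green fluorescent protein. Each line was measured on 2 Affymetrix Human Gene 1.0 ST arrays. Whether the arrays of a line stand for separate cultures is not given in the labels, and the p-values therefore reflect only array-to-array spread, part or all of which may be technical. The labels speak of growth in mice and the methods of culture, so the state of the cells at extraction was not settled. Values are log2 expression after robust multichip averaging (RMA), and a difference is PC-3-BM minus PC-3 with its standard error (SE) from limma and an adjusted p over all 33297 probe sets.

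MMPs are zinc enzymes that are made as inactive precursors and cut collagens, laminins and other matrix proteins. Most are secreted, whereas the membrane-type MMPs act at the cell surface, and the TIMP proteins and the membrane-anchored RECK hold them in check. The plasminogen activators uPA, which PLAU encodes, and tPA, which PLAT encodes, turn plasminogen into plasmin, uPA does so while bound to its receptor uPAR, and serpins such as protease nexin-1, which SERPINE2 encodes, block them. ADAMs shed growth factors and receptors from the cell surface, and ADAMTS enzymes cut proteoglycans and other matrix proteins. In bone metastasis, these systems are known for matrix breakdown around tumor cells, osteoclasts and osteoblasts.

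The defining markers of the lines were checked first. Of 5 epithelial markers 4 fell in PC-3-BM, and their summed level, as log2 of the summed linear values, went from 12.86 to 12.94 on the PC-3 arrays to 12.24 to 12.26 on the PC-3-BM arrays. KLK2 and KLK3, the 2 prostate luminal markers measured, did not pass the test in either direction. Of 7 blood and osteoclast markers only the lysosomal glycoprotein CD68 rose (by 0.72, SE 0.07, limma, adjusted p = 0.00519), and the sum went from 10.96 on both PC-3 arrays to between 11.53 and 11.62 on the PC-3-BM arrays, while PTPRC, LYZ and FCER1G lay in both lines below the lower quartile of all values (5.02). Of 7 stromal markers COL1A1 and LUM rose (summed level 9.25 to 9.29 in PC-3 and 9.61 to 9.64 in PC-3-BM), of 5 endothelial markers PECAM1 rose (summed level 10.95 to 11.07 and 10.83 to 10.93), and DCN, LUM and TEK lay below the lower quartile in both lines. In these bulk samples a change in the share of cells that carry a transcript and a change of its amount per cell cannot be told apart.

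The families of the list differed in how many genes changed. PLAT, SERPINE2, ADAMTS1, ADAMTS5, ADAMTS12 and most ADAM genes of the list were higher in PC-3-BM. PLAU and ADAM19 were lower, and the secreted MMPs, which include the collagenases and gelatinases, did not pass the test. At an adjusted p below 0.05, 17 of 44 genes (38.6%) differed, 13 higher (29.5%) and 4 lower (9.09%). Among all genes taken by their brightest probe set 29.6% differed, 14.8% higher and 14.8% lower, and among all probe sets 23.2% did. Changes of more than 2-fold were seen in 7 of the 44 genes (15.9%), against 3.76% of all genes. The list was chosen with earlier results of these data known, and these shares were not matched for brightness, so the excess is description only. No gene of the list reached both cut-offs used in the study, which were 0.001 for the adjusted p and 2 for the size of the log2 difference. PLAT came nearest, with 1.86 and an adjusted p of 0.001003 (limma). In the limma fit used here 15 of all 18417 genes passed both cut-offs, so few that a list of 44 could easily hold none. The study reported more genes at these cut-offs than this fit gave. The arrays of the lines did not overlap for 32 of the 44 genes, against 70.6% of all genes, so a lack of overlap says little here. Brighter genes were called more often. Among genes with a mean above the median of all values (6.69), 41.5% of all genes and 14 of 21 genes of the list differed. The median difference of the 44 genes was −0.01, against −0.04 over all genes.

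Fewer genes passed with 1 array left out. Without PC-3 array 1, PC-3 array 2, PC-3-BM array 1 or PC-3-BM array 2, 8, 7, 10 and 12 of the 44 genes passed, where a line left with 1 array was assumed to vary like the other. Over all probe sets the share called in these fits was 7.31%, 6.72%, 9.87% and 11.6%, against 23.2%. PLAU, PLAT, SERPINE2, ADAM12, ADAM19, ADAMTS1 and ADAMTS5 passed in each of these 4 fits. MMP15, RECK, ADAM9, ADAM10 and ADAM15 passed in none of them, with differences that stayed close to those from all arrays, such as −0.50 to −0.44 for MMP15 and 0.44 to 0.53 for RECK over all alternatives. The remaining 5, MMP14, TIMP2, ADAM8, ADAM17 and ADAMTS12, lost the call in 1 to 3 of the 4 fits.

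**Figure D1:**
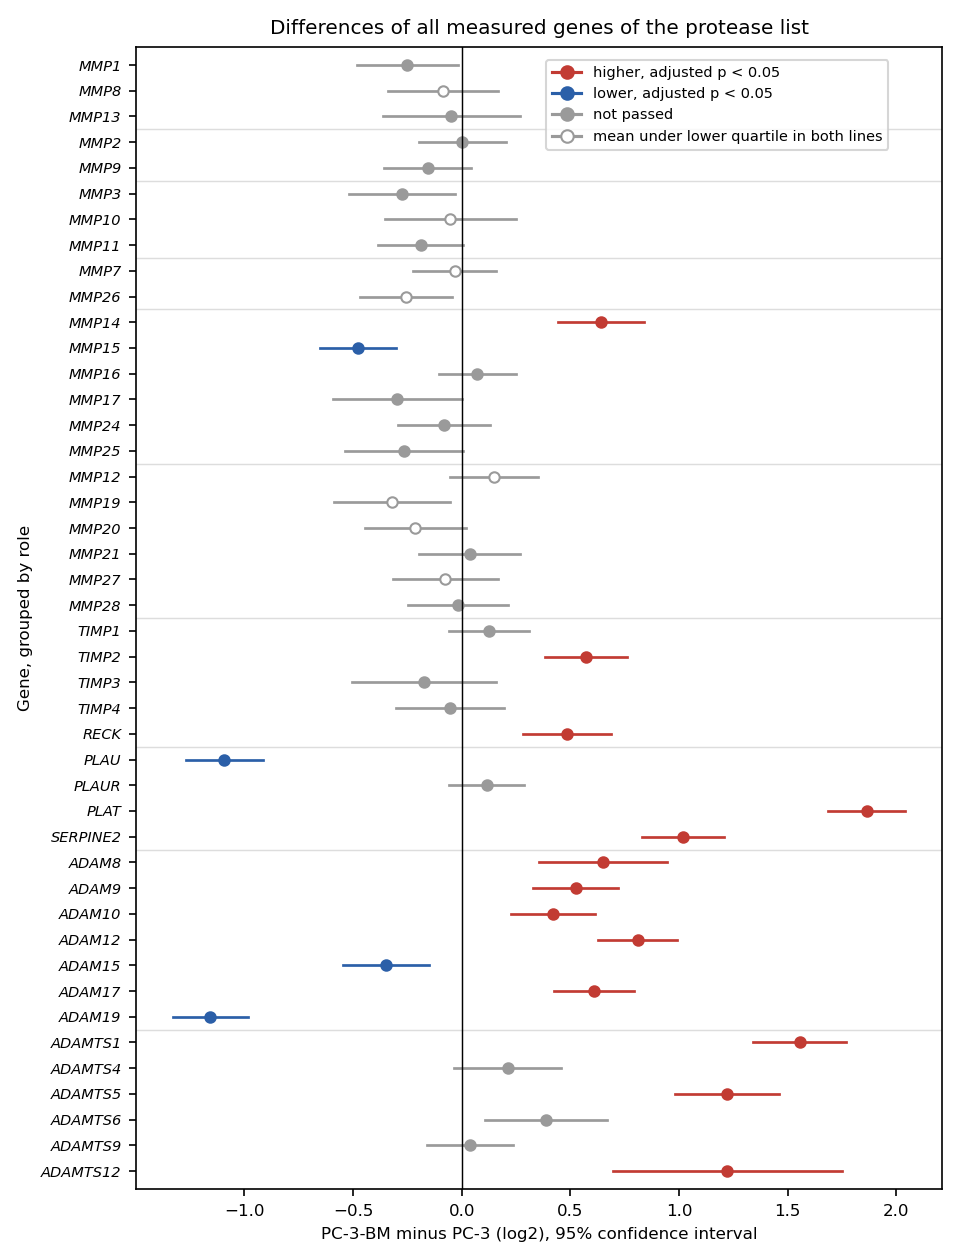
Difference between PC-3-BM and PC-3 (log2, horizontal axis) for the 44 measured genes of the list (vertical axis, grouped by role), with bars for the 95% confidence interval of limma. Red and blue dots are the 13 genes higher and the 4 lower at an adjusted p below 0.05, grey dots did not pass, and open dots had means below the lower quartile of all values in both lines. The MMPs cluster around 0, and PLAT lies farthest from it at 1.86.

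The plasminogen system held the change of the greatest size in the list. PLAT, encoding tPA, read 11.11 and 11.12 on the PC-3 arrays and 13.01 and 12.95 on the PC-3-BM arrays. Both PC-3-BM arrays lay far above both PC-3 arrays, and the transcript rose 3.64-fold (log2 difference 1.86, SE 0.07, 95% confidence interval 1.69 to 2.04, limma, adjusted p = 0.001003). PLAU, encoding uPA, went the opposite way, from 11.21 and 11.17 to 10.11 and 10.08. It fell by 1.09 on the log2 scale (SE 0.07, limma, adjusted p = 0.00204). The lines were thus separated in opposite directions by the 2 activators. SERPINE2, encoding a serpin that blocks thrombin, uPA and tPA, read 9.39 and 9.37 in PC-3 and 10.35 and 10.45 in PC-3-BM, and it rose 2.03-fold (log2 difference 1.02, SE 0.07, limma, adjusted p = 0.00268). PLAUR, encoding the uPA receptor, read 10.96 and 10.97 against 11.08 and 11.08. Its arrays did not overlap, but the difference of 0.12 (95% confidence interval −0.06 to 0.29, limma, adjusted p = 0.285) did not pass.

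PLAU did not change alone along its chromosome. Of the 5 measured genes on either side of it on chromosome 10, 7 of 10 fell and 0 rose, with a median of −0.43, and whether the fall of PLAU belongs to that stretch was not tested. For PLAT 4 of 10 such neighbors rose and 1 fell (median 0.22), and for SERPINE2 3 rose and 1 fell (median 0.13). Over all genes 14.8% rose and 14.8% fell.

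**Figure D2:**
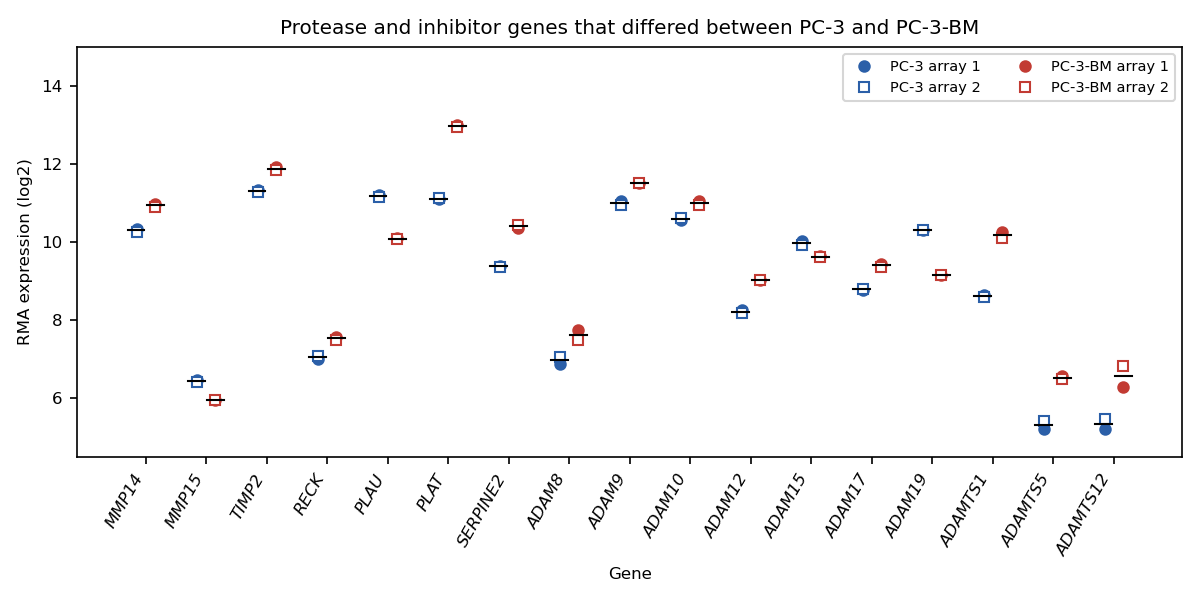
The 17 genes that differed (horizontal axis) with their RMA values on every array (log2, vertical axis). PC-3 is in blue and PC-3-BM in red, filled circles are array 1, open squares are array 2, and black bars are the means of each line. The arrays of the lines do not overlap for any of the 17 genes, and the widest gap within a line is that of ADAMTS12 in PC-3-BM, with 6.29 and 6.84.

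Collagenases, gelatinases, stromelysins and matrilysins gave no call. Of 16 MMPs other than the membrane-type ones, 0 passed limma at an adjusted p below 0.05, against 29.6% of all genes. At an unadjusted p below 0.05 there were 4, all lower in PC-3-BM, against 8010 of all 18417 genes, 4268 of them lower. The differences of the 16 ran from −0.32 to 0.15 with a median of −0.08. Much of this group was dim, with 8 of the 16 below the lower quartile of all values in both lines. MMP1, the interstitial collagenase that opens fibrillar collagen, was well above that level. It read 8.58 and 8.58 in PC-3 and 8.43 and 8.24 in PC-3-BM. The PC-3-BM arrays were lower, and the difference of −0.25 had a 95% confidence interval of −0.48 to −0.02 (limma, adjusted p = 0.116). MMP13, the collagenase of bone and cartilage, read 7.01 and 6.91 against 7.06 and 6.76, so its arrays overlapped (difference −0.05, 95% confidence interval −0.36 to 0.27). MMP11, or stromelysin-3, differed by −0.19 (95% confidence interval −0.38 to 0.01).

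The gelatinases, which cut denatured collagen and basement membrane collagen IV, showed little difference. MMP2 read 5.55 and 5.49 in PC-3 and 5.46 and 5.58 in PC-3-BM, with a difference of 0.00 (95% confidence interval −0.20 to 0.21). MMP9, known from neutrophils and osteoclasts, read 5.90 and 5.77 against 5.68 and 5.67, lower in PC-3-BM by less than the test could call (−0.16, 95% confidence interval −0.36 to 0.04). MMP3, a stromelysin, differed by −0.28 (limma, adjusted p = 0.106), MMP19 by −0.32 (limma, adjusted p = 0.0900) and MMP26, a matrilysin, by −0.26 (limma, adjusted p = 0.0890). These 3 genes and MMP1 passed when probe sets of 1 gene symbol alone were tested, with adjusted p of 0.0422, 0.0315, 0.0357 and 0.04997 (limma), where 22 of the 44 genes passed, 14 higher and 8 lower, and the share called over all probe sets tested was 39.8% in place of 23.2%. MMP19 and MMP26 were below the lower quartile in both lines and MMP3 in PC-3-BM. The other dim MMPs in both lines were MMP7, MMP8, MMP10, MMP12, MMP20 and MMP27, with differences between −0.21 and 0.15, while MMP21 and MMP28 differed by 0.04 and −0.02.

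The MMPs that sit in the cell membrane included the only called MMPs. MMP14, encoding MT1-MMP, which cuts fibrillar collagen at the cell surface and activates the MMP2 precursor, read 10.34 and 10.26 in PC-3 and 10.99 and 10.89 in PC-3-BM. It rose 1.56-fold with no overlap between the lines (log2 difference 0.64, SE 0.08, limma, adjusted p = 0.00717). MMP15, encoding MT2-MMP, read 6.46 and 6.42 against 5.96 and 5.96 and fell by 0.48 (SE 0.07, limma, adjusted p = 0.0108). The other members of this class did not pass. MMP16, or MT3-MMP, read 8.84 and 8.79 against 8.87 and 8.90, and its 2 probe sets gave differences of 0.07 and 0.14, neither past the test. MMP17 and MMP25, whose products are held by a lipid anchor, differed by −0.30 (95% confidence interval from −0.59 to just below 0) and −0.27 (95% confidence interval −0.54 to 0.01), and MMP24 by −0.08. Without PC-3 array 2 the difference of MMP14 was 0.60 (SE 0.10, limma, adjusted p = 0.0578), close to that from all arrays.

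Of the 5 inhibitors, 2 rose and 0 fell (40%), against 29.6% of all genes called. Above the median of all values, where 3 of the 5 lay, 41.5% of all genes were called, a similar share. TIMP2, which inhibits MMPs and also bridges MT1-MMP to the MMP2 precursor, read 11.33 and 11.28 in PC-3 and 11.92 and 11.84 in PC-3-BM. It rose 1.49-fold, with both PC-3-BM arrays above both PC-3 arrays (log2 difference 0.57, SE 0.07, limma, adjusted p = 0.00839). RECK read 7.002 and 7.092 in PC-3 and 7.581 and 7.485 in PC-3-BM and rose by 0.49 (SE 0.08, limma, adjusted p = 0.0150). TIMP1, a secreted inhibitor of many MMPs, read 13.45 and 13.37 against 13.54 and 13.53, and its difference of 0.13 (95% confidence interval −0.06 to 0.31) did not pass. TIMP3, the matrix-bound inhibitor that also blocks ADAM17 and ADAMTS enzymes, had 2 probe sets with opposite signs (−0.17 and 0.11), and neither passed. TIMP4 differed by −0.05 (95% confidence interval −0.30 to 0.20).

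All 7 ADAM genes of the list passed the test, 5 higher and 2 lower. All 7 were above the median of all values, where 41.5% of all genes were called. The family as a whole was less uniform. Outside the list ADAM32, ADAM23 and ADAM20 rose, ADAM21 and ADAM11 fell, and the other measured ADAM genes did not pass. ADAM19 showed the clearest shift. It read 10.31 and 10.32 on the PC-3 arrays and 9.16 and 9.15 on the PC-3-BM arrays, a gap many times wider than that between arrays of 1 line. ADAM19, a sheddase of neuregulin, fell by 1.16 (SE 0.07, limma, adjusted p = 0.00183). ADAM12, which cuts insulin-like growth factor binding proteins and EGF family ligands, went from 8.25 and 8.18 to 9.04 and 9.02 and rose 1.75-fold (log2 difference 0.81, SE 0.07, limma, adjusted p = 0.00373).

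The 2 main sheddases were both higher in PC-3-BM. ADAM17, which releases tumor necrosis factor and several EGF receptor ligands, read 8.78 and 8.81 against 9.44 and 9.37 and rose 1.52-fold (log2 difference 0.61, SE 0.07, limma, adjusted p = 0.00673). ADAM10, which cleaves Notch receptors, E-cadherin and other surface proteins, read 10.56 and 10.61 against 11.05 and 10.96 and rose 1.34-fold (log2 difference 0.42, SE 0.07, limma, adjusted p = 0.0192). ADAM9 rose by 0.52 (SE 0.08) and ADAM8, a protease known from leukocytes and osteoclasts, by 0.65 (SE 0.11). Of the blood and osteoclast markers CD68 alone passed the test, and it rose, while CD14, CSF1R and TYROBP differed by −0.06 to 0.03. PTPRC, FCER1G and LYZ, below the lower quartile in both lines, differed by 0.24, 0.21 and −0.12 and did not pass. Whether the rise of ADAM8 is tied to cells of that kind was not tested. ADAM15 read 10.04 and 9.92 against 9.64 and 9.62 and fell by 0.35 (SE 0.08, limma, adjusted p = 0.0331).

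Of the 6 measured ADAMTS genes of the list 3 rose (50%) and 0 fell, against 14.8% of all genes higher and 14.8% lower. Each of the 3 changed by more than 2-fold, against 3.76% of all genes. ADAMTS1, which cuts aggrecan and versican and is known to restrain blood vessel growth, read 8.65 and 8.61 in PC-3 and 10.26 and 10.11 in PC-3-BM. It rose 2.94-fold (log2 difference 1.55, SE 0.08, 95% confidence interval 1.34 to 1.77, limma, adjusted p = 0.00160). ADAMTS5, a main aggrecan-cutting enzyme of cartilage, went from 5.22 and 5.41 to 6.568 and 6.497 and rose 2.33-fold (log2 difference 1.22, SE 0.09, limma, adjusted p = 0.00293). ADAMTS12 also rose by 1.22, but from 5.21 and 5.47 to 6.29 and 6.84, with the widest spread within PC-3-BM of all 44 genes (SE 0.20, limma, adjusted p = 0.0162). The PC-3 values of ADAMTS5 and ADAMTS12 lay close to the lower quartile of all values (5.02).

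The other ADAMTS genes of the list did not pass. ADAMTS6 read 5.33 and 5.59 against 5.83 and 5.87, higher in PC-3-BM without overlap (difference 0.39, 95% confidence interval 0.11 to 0.67, limma, adjusted p = 0.0639), and it passed among probe sets with a mean above 5 (limma, adjusted p = 0.0421) and among those of 1 gene symbol (limma, adjusted p = 0.0182). Of its 10 nearest measured neighbors on chromosome 5, 6 rose and 0 fell, against 14.8% of all genes in either direction. ADAMTS4, a second aggrecanase, differed by 0.21 (95% confidence interval −0.03 to 0.46) and ADAMTS9 by 0.04. Outside the list ADAMTS16 and ADAMTS20 rose by 0.54 and 0.42 and ADAMTS17 fell by 0.57. The remaining measured ADAMTS genes did not pass.

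Position along the chromosome set some of these genes side by side. In the order of genes in the RefSeq table of assembly GRCh38.p14, 9 MMPs (MMP7, MMP20, MMP27, MMP8, MMP10, MMP1, MMP3, MMP12 and MMP13) follow each other on chromosome 11 with no other measured gene between them. Of this run 0 passed, and the range was −0.28 to 0.15. Differences below 0 were seen in 8 of the 9, and in 10533 of all 18417 genes. ADAMTS1 and ADAMTS5 are next to each other on chromosome 21, with 0 measured genes between them, and both rose. Of the 10 nearest measured neighbors of ADAMTS1, 1 rose, which was ADAMTS5, and 1 fell. For ADAMTS5 1 of 10 rose, which was ADAMTS1, and 2 fell. The median over the 10 was −0.01 for both. ADAM12 and MMP21 lie near each other on chromosome 10. There 5 of the 10 nearest neighbors of MMP21 rose, ADAM12 among them, against 14.8% of all genes.

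**Figure D3:**
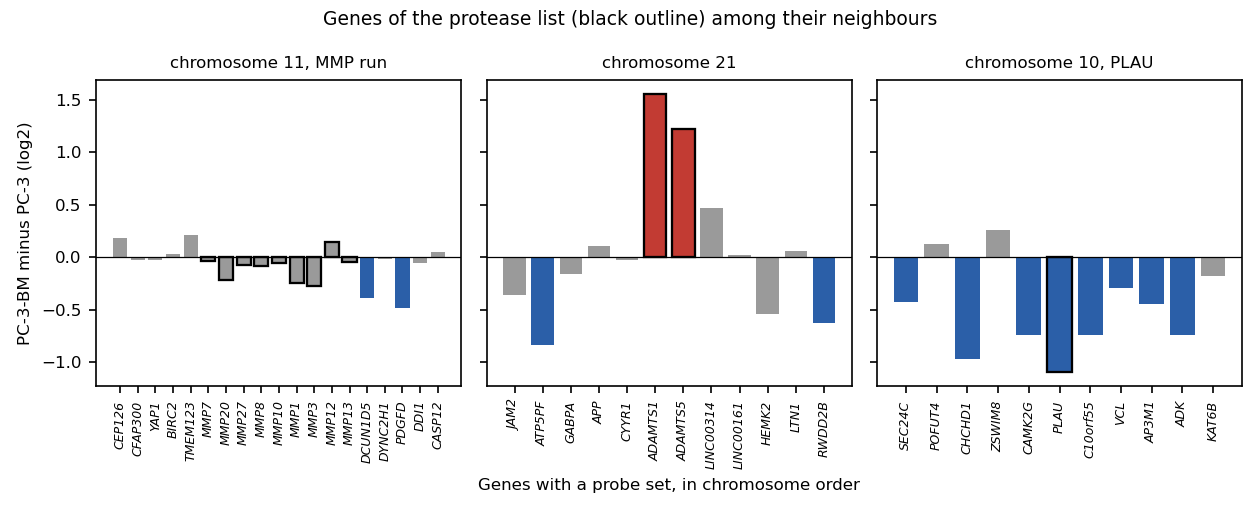
Difference between PC-3-BM and PC-3 (log2, vertical axis) of measured genes in chromosome order (horizontal axis) around the run of 9 MMPs on chromosome 11, ADAMTS1 and ADAMTS5 on chromosome 21, and PLAU on chromosome 10. Red and blue bars passed an adjusted p below 0.05, grey bars did not, and black outlines mark genes of the list. No MMP of the run passed, ADAMTS1 and ADAMTS5 are the only red bars, and 7 of the 10 genes around PLAU fell with it.

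Promoter sequence was read for the genes that the RefSeq promoter table (GRCh38.p14) holds, 27 of the 46. AP-1, the FOS and JUN dimer known to drive MMP genes, binds TGANTCA, and the TATA box is TATAAA, and each was searched on both strands in the 250 bases before the gene start. Of the 27 genes 6 (22.2%) held TGANTCA and 7 (25.9%) held TATAAA in at least 1 of their promoters. Counted by promoter and not by gene, 6.57% and 10.7% of all 35116 promoters of the table did. The shares are thus not on the same unit. The 6 were MMP7, MMP10, MMP20, PLAUR, ADAMTS12 and SERPINB2. Among 12 genes with a promoter that differed between the lines, 1 (ADAMTS12) held TGANTCA and 0 held TATAAA. A match of letters is a description and not a binding site.

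The bases upstream of the start are shown for the measured genes with an AP-1 match, so that the uncalled MMPs of chromosome 11 can be set beside ADAMTS12, and for ADAM19 and MMP14, which changed and hold no match in the stretch shown. Each is written 5′ to 3′ in the direction of the gene and ends at the base before its start, with AP-1 and TATA matches in capitals.
MMP7 (chr11:102530748-102530877, minus strand): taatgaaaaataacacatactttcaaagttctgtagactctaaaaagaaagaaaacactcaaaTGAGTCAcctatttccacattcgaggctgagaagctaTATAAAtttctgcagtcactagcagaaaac
MMP10 (chr11:102780629-102780758, minus strand): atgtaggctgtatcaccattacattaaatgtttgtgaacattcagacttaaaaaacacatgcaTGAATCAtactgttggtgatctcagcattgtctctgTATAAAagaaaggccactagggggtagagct
MMP20 (chr11:102625333-102625462, minus strand): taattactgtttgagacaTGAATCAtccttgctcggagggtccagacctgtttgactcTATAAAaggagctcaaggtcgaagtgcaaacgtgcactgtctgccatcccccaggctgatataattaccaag
PLAUR (chr19:43670170-43670369, minus strand): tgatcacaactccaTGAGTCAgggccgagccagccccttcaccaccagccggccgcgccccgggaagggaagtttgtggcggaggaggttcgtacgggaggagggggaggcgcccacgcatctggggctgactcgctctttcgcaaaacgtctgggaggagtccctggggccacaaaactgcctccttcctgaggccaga
ADAMTS12 (chr5:33891991-33892120, minus strand): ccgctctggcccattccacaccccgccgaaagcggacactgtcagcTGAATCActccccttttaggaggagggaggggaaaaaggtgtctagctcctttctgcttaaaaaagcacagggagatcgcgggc
ADAM19 (chr5:157575776-157575905, minus strand): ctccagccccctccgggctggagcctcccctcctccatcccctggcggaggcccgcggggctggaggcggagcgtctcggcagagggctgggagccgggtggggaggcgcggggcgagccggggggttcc
MMP14 (chr14:22836455-22836584, plus strand): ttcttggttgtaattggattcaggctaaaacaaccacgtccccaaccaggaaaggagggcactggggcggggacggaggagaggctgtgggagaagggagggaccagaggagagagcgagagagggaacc
In MMP7 the matches begin 67 and 30 bases before the start and in MMP10 67 and 31, and these 2 genes thus share the same layout of both motifs. MMP20 has them at 112 and 72. The match of PLAUR begins 186 bases before the start and that of ADAMTS12 84, both without TATAAA in the stretch shown.

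The wider protease network was described from 4 further lists. Of 31 other MMP, ADAM and ADAMTS genes 6 rose and 3 fell (29%, median difference 0.03), a share near the 29.6% of all genes. ADAM32, next to ADAM9 with 0 measured genes between them, rose 2.42-fold and ADAM23, an inactive adhesion member, 2.03-fold. ADAM20 rose by 0.63 and ADAM21 fell by 0.89, but these are close copies of each other and their probe sets may share signal.

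Of 32 other serpins 1 rose, 8 fell and 23 did not pass (median −0.11). The share called, 28.1%, was near the 29.6% of all genes. SERPINH1, the collagen chaperone HSP47, read 9.09 ± 0.15 in PC-3 and 7.45 ± 0.14 in PC-3-BM (SD, n = 2) and fell by 1.64 (SE 0.11). It is not an inhibitor of proteases. SERPINB5, or maspin, fell by 1.58 (SE 0.10), SERPINB3 fell by 1.38 (SE 0.11) and SERPINB10 fell by 1.13 (SE 0.10), where SERPINB3 has a near-identical copy in SERPINB4 and SERPINB10 was below the lower quartile in PC-3-BM. The 1 that rose was SERPINB7, by 0.39 (SE 0.08, limma, adjusted p = 0.0281). Neighbors along the chromosome were not counted for these serpins.

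In the list of plasminogen binding and neighboring blood proteases 7 of 18 rose and 2 fell (50%, median 0.00), against 29.6% of all genes called and 41.5% of those above the median of all values, where 11 of the 18 lay. TFPI, the inhibitor of the tissue factor pathway, rose 3.13-fold (8.75 ± 0.05 to 10.39 ± 0.04, SD, n = 2) and F3, tissue factor itself, 1.57-fold. IGF2R, which binds uPAR and latent growth factors, rose by 0.59 on the log2 scale and LRP1, the receptor that clears tPA, uPA and their serpin complexes, by 0.56. S100A10, a surface receptor of plasminogen, rose 1.40-fold, while its partner ANXA2 differed by −0.18 and did not pass. ENO1 rose by 0.27 (SE 0.07, limma, adjusted p = 0.0464). The 2 that fell were PLGRKT, by 0.35 (SE 0.08, limma, adjusted p = 0.0367), and PROCR, by 0.27 (SE 0.07, limma, adjusted p = 0.0482). S100A10, ANXA2, ENO1, PLGRKT and PROCR are in the list but were singled out after their values were seen. PLG itself, the substrate of both activators, read 5.18 in PC-3 and 4.95 in PC-3-BM on average and did not pass.

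Among activators, inducers and further inhibitors of metalloproteases 7 of 20 rose and 3 fell (50%, median −0.04), and 14 of the 20 lay above the median of all values, where 41.5% of all genes were called. Several of them act on ADAM10 and ADAM17. TSPAN15, a tetraspanin that pairs with ADAM10, fell by 1.51 (11.01 ± 0.04 to 9.50 ± 0.01, SD, n = 2), and TSPAN12, also known as a partner of ADAM10, rose 2.65-fold. RHBDF1, an inactive rhomboid that carries ADAM17 to the surface, rose 2.05-fold, whereas its relative RHBDF2, singled out after its values were seen, differed by −0.04 and did not pass. SPINT1, an inhibitor of the membrane serine proteases matriptase and hepsin, fell by 1.37. Its relative SPINT2, in the same list and singled out after its values were seen, rose by 0.51. FURIN, which removes the propeptide of membrane-type MMPs and ADAMs, rose 1.39-fold (SE 0.07, limma, adjusted p = 0.0138). Of the PCSK genes in the same list, PCSK6 fell by 0.31 (SE 0.07, limma, adjusted p = 0.0390). PCSK5 and PCSK7 differed by −0.19 and 0.04 and did not pass. FURIN and the PCSK genes were singled out after their values were seen. The limma adjusted p of the genes taken from the 4 lists by size lay between 0.00129 for TFPI and 0.0168 for ADAM20.

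**Figure D4:**
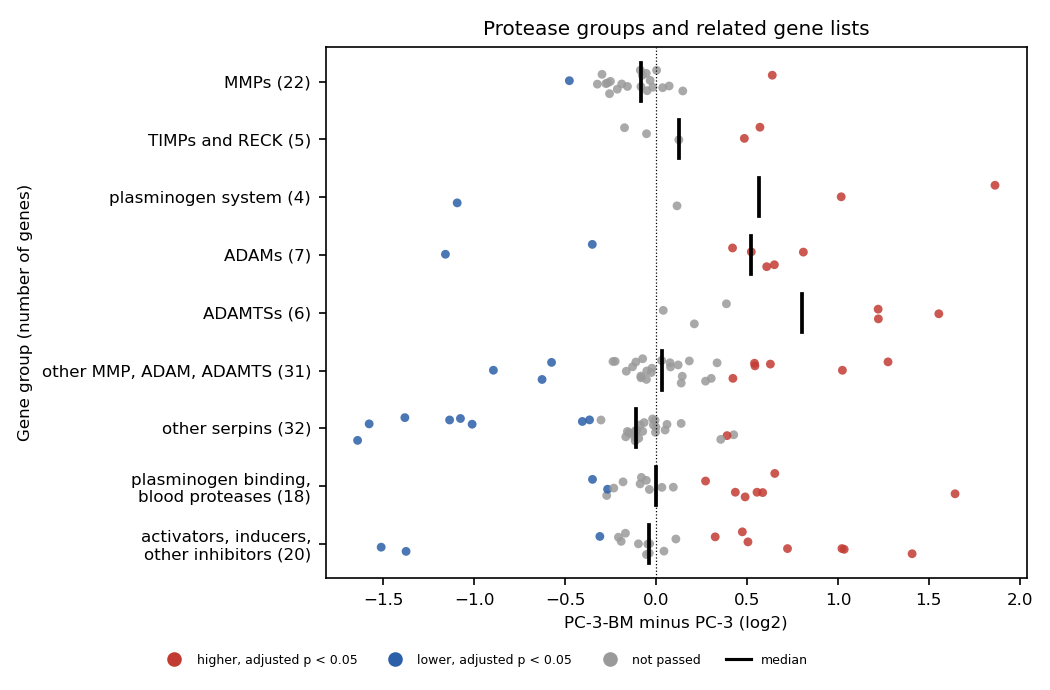
Differences between PC-3-BM and PC-3 (log2, horizontal axis) for the 5 families of the list and 4 related lists (vertical axis, number of genes in brackets). Each dot is a gene, red higher and blue lower at an adjusted p below 0.05 and grey not past it, and black bars are medians. The 22 MMPs have a median of −0.08 with 2 called, the 7 ADAMs are all called, and 8 of the 9 called serpins outside the list are on the lower side.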

How the data were processed

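RNA of 2 PC-3 and 2 PC-3-BM samples was hybridized to single-color Affymetrix arrays, and the authors deposited log2 values made by RMA, which corrects background, equalizes the arrays and summarizes probes into probe sets. The submitters' notes name limma 3.24 and R 3.2. The 33297 rows were used as deposited, without a filter. RMA gives no detection call and hides a shift of all transcripts. The platform annotation gave 19460 probe sets 1 symbol. Each gene was read from its brightest 1-symbol probe set.

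PC-3-BM was compared with PC-3 across all probe sets in limma 3.58.1 under R 4.3.3 (empirical Bayes, 2.88 prior and 2 residual degrees of freedom, Benjamini-Hochberg), tested beforehand on simulated data. With 2 against 2 arrays, an exact permutation test cannot go below p = 0.333, and precision is limited by the number of arrays. Genes past 0.05 were named with the values of each array, and from each related list the 4 with the largest differences past it. The genes and lists were chosen with earlier results of these data known. Alternatives covered the replicate block, scaling, filters, variance model, probe set choice and each array left out.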

Additional observations from a re-analysis of the deposited data

How the results depend on the processing

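Across the 4 fits with 1 array left out, between 7 and 12 of the 44 genes passed an adjusted p below 0.05 in limma, against 17 with all arrays, with 5 to 10 higher and 2 in each fit lower. Over all probe sets the same fits called 2238 to 3854 (6.72% to 11.6%), against 7717 (23.2%). When only probe sets of 1 gene symbol were tested, 8 genes of the list were lower in PC-3-BM in place of 4, with all 4 of the original ones among them, and 14 were higher, which makes 22 in all. That setting called 39.8% of the 19460 probe sets tested, and the cause was not tested. No called gene changed direction in any of the 11 alternatives. Of the 17 calls 16 were kept under the 7 settings that used all arrays: the replicate block, median centring, a mean above 5, probe sets of 1 symbol, a variance trend, robust variance and the mean of a gene's probe sets. The exception was ADAM15 under the replicate block. The array numbers were not taken to pair the samples, since they are not said to do so. The deviations of array 1 from its line's mean correlated at −0.02 between the lines. With the replicate block 16 genes passed, 13 higher and 3 lower. Signal near background limits the 8 MMPs that lay below the lower quartile of all values in both lines.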
